A study of Rattus norvegicus with 48 samples.

Results

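The samples described are the plasma samples drawn before surgery from rats whose skull defect later regenerated strongly or weakly. They are 12 of the 48 samples of the series, 6 from strong regenerators (rats 2, 5, 17, 21, 23 and 29) and 6 from weak regenerators (rats 3, 6, 7, 16, 25 and 26), with 1 sample per rat. The labels list the regeneration of the baseline samples as unknown, so each was placed by the good or bad regeneration recorded for the same rat at its later weeks. The 36 later samples come from the same 12 rats at weeks 1, 4 and 8.

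All rats were male and 12 weeks old, and the study names their strain once as Wistar and once as Sprague-Dawley. At the first blood draw no rat had a defect or a treatment, so both groups were untreated animals under sevoflurane inhalation, bled from the tail vein into K2-EDTA. A calvarial defect was then made and either left empty or filled with a collagen-hydroxyapatite scaffold, alone, with a plasmid encoding BMP2 and miR-590-5p, or with extracellular vesicles of mesenchymal stromal cells. The 6 best and the 6 worst healers by microCT bone volume were picked across these treatments at the end of the study. The treatments were not evenly split: by the study's account, plain scaffolds occurred only among the strong regenerators and most plasmid scaffolds among the weak ones. The treatment of each rat was not analysed here, so after surgery group and treatment cannot be fully told apart. The groups are the extremes of a distribution of bone volume. The comparison asks whether plasma miRNAs of later strong and weak healers differed before the defect existed.

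MicroRNAs are short RNAs cut from hairpins, and each guides a silencing complex to mRNAs mainly through its seed, the bases 2 to 8 from its 5′ end. Those in plasma are carried by vesicles and proteins and come mostly from blood cells, with smaller shares from organs such as muscle, liver and pancreatic islets. Several of them, the let-7 family among them, are known regulators of cell growth and differentiation, also in bone-forming cells. In plasma, fewer releasing cells and less release per cell cannot be told apart.

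The sequences that matter for the comparison are shown first, as RefSeq gives them on the rat build GRCr8, with the seed in capitals. The let-7 members with the smallest p-values of the baseline comparison share 1 seed, and miR-98-5p is the family member whose difference was nearest to 0. Their mature sequences lie at chr8:50805219-50805240 and chr17:16320145-16320166 (let-7a-5p), chr7:118684044-118684065 (let-7b-5p), chr7:118683636-118683657 and chr11:29688127-29688148 (let-7c-5p), chr8:115701026-115701047 (let-7g-5p) and chrX:24460663-24460684 (miR-98-5p), all on the plus strand.
let-7a-5p: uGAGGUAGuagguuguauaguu
let-7b-5p: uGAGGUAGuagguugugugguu
let-7c-5p: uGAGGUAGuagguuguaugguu
let-7g-5p: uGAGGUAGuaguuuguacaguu
miR-98-5p: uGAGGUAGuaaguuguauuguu

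The second set shares the miR-15/16 seed. The mature sequences of miR-15b-5p (chr2:155555197-155555218) and miR-16-5p (chr2:155555343-155555364) lie near each other, and that of miR-195-5p lies at chr10:55450509-55450529, all on the plus strand.
miR-15b-5p: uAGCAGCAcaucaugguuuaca
miR-16-5p: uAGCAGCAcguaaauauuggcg
miR-195-5p: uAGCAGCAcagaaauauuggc

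The study singled out miR-133a-3p and miR-375-3p between the groups, using samples of all time points. It reports that both were also significantly different before surgery. They form the third set, with miR-133b-3p and miR-494-3p for comparison. Their loci are chr18:2157886-2157907 on the minus strand (miR-133a-3p), chr9:30594629-30594650 on the plus strand (miR-133b-3p), chr9:83906591-83906612 on the minus strand (miR-375-3p) and chr6:134550163-134550185 on the plus strand (miR-494-3p).
miR-133a-3p: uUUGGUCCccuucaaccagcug
miR-133b-3p: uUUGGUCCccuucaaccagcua
miR-375-3p: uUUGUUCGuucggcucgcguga
miR-494-3p: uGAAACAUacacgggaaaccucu

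The deposited counts summed to between 482189 and 1360663 miRNA reads in strong regenerators (median 690948) and between 754637 and 1275036 in weak regenerators (median 1068590), so the strong samples were on the whole shallower. The difference in total count did not pass the test (two-sided exact permutation test over all splits of the 12 rats into 6 and 6, p = 0.169, adjusted p = 0.390 over 7 single values). Strong regenerators had 463 ± 19.1 detected miRNAs (SD, n = 6) and weak regenerators 472 ± 14.8 (exact permutation p = 0.364, adjusted p = 0.509). With more than 10 reads there were 289 ± 25.7 and 311 ± 9.81 miRNAs (exact permutation p = 0.0801, adjusted p = 0.280). The plasma was led by miRNAs of blood cells: miR-16-5p made up 9.89% of the reads on average, miR-451-5p 8.06% and miR-486 7.31%, beside the cartilage miRNA miR-140-3p with 9.54%.

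The haemolysis ratio, the log2 ratio of the red-cell miRNA miR-451-5p to miR-23a-3p, was 2.13 ± 0.785 in strong and 2.17 ± 0.307 in weak regenerators (SD, n = 6; exact permutation p = 0.922, adjusted p = 0.922). Strong rat 29 had the lowest ratio, 0.752, and strong rat 5 the highest, 2.93. Reads of the extraction spike-in UniSp2 were 33.0 ± 4.85 per 1000 miRNA reads in strong and 35.3 ± 6.51 in weak regenerators (exact permutation p = 0.491, adjusted p = 0.573).

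No miRNA passed the test between strong and weak regenerators before surgery. Of 591 miRNAs tested with edgeR's quasi-likelihood test, 0 had a false discovery rate (FDR, the Benjamini-Hochberg adjusted p) under 0.05, which is 0% of those tested, and the smallest FDR was 0.294. An unadjusted p under 0.05 was reached by 47 miRNAs (7.95%), of which 28 were on the side of strong regenerators (4.74%) and 19 on the side of weak regenerators (3.21%). DESeq2 called 3 miRNAs, let-7a-5p, let-7b-5p and miR-15b-5p, each with an adjusted p of 0.0296. limma-voom, with 36 miRNAs at an unadjusted p under 0.05, called 0. Normalised levels below are the deposited counts scaled to a common total of 1e+06 miRNA reads per sample (RPM), and differences are log2 values of strong minus weak regenerators ± SE from edgeR.

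The 4 miRNAs that shared the smallest FDR, 0.294, were let-7b-5p, let-7a-5p, let-7c-5p and miR-15b-5p. In let-7a-5p the strong rats 2, 5, 17, 21, 23 and 29 had 165, 157, 169, 160, 84.7 and 119 RPM, and the weak rats 3, 6, 7, 16, 25 and 26 had 97.8, 60.5, 88.4, 87.1, 67.6 and 56.0 RPM. All strong rats except rat 23 lay above every weak rat. The log2 difference was 0.87 ± 0.23.

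For let-7b-5p the strong rats, in the same order, had 1055, 733, 920, 699, 486 and 987 RPM, against 571, 436, 522, 354, 428 and 463 RPM in the weak rats. Again only rat 23 among the strong rats fell into the range of the weak rats. The log2 difference was 0.77 ± 0.20, and every strong rat was above the weak median of 450 RPM. For let-7c-5p the levels were 2064, 1461, 1807, 1240, 894 and 1996 RPM in strong and 1291, 784, 997, 673, 678 and 854 RPM in weak rats, with rats 21 and 23 within the weak range and a log2 difference of 0.79 ± 0.22.

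The let-7 family as a whole was looked at after these values had been seen, so its counts are a description. Of the 9 family members with the seed shown above, 8 had a positive log2 difference and 5 an unadjusted p under 0.05, against 4.74% of all miRNAs on that side. The median over the 9 was 0.67, against -0.03 over the 315 miRNAs with a mean of at least 10 RPM. The further members were let-7e-5p with 0.73 ± 0.30, let-7g-5p with 0.67 ± 0.24, let-7d-5p with 0.41 ± 0.30, let-7f-5p with 0.34 ± 0.24, let-7i-5p with 0.21 ± 0.18 and miR-98-5p with -0.03 ± 0.19. let-7i-5p, the most abundant member with a mean of 13464 RPM, ran from 12880 to 17440 RPM in strong and from 7639 to 15198 RPM in weak rats, and the groups overlapped.

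Reads of near-identical family members can be assigned to each other. Of the 36 pairs among these 9 sequences, 4 differ at a single base, among them let-7a-5p with let-7c-5p and let-7b-5p with let-7c-5p, so their values are not independent measurements. Summed over the family, the level ran from 18980 to 28554 RPM in strong rats (median 23644 RPM) and from 11672 to 22380 RPM in weak rats (median 18428 RPM), which overlap. The opposite hairpin arm let-7b-3p, cut from the same precursor as let-7b-5p, had a log2 difference of -0.10 ± 0.39 at a mean of 11.9 RPM. For let-7g-3p it was -0.47 ± 0.58 at 2.86 RPM. Without weak rats 25 and 26 the family median was 0.51 with 3 members at an unadjusted p under 0.05, and with all samples thinned to 482189 reads it was 0.68 with 5. Among all miRNAs these fits had 24 of 585 and 27 of 573 on the strong side.

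**Figure D1:**
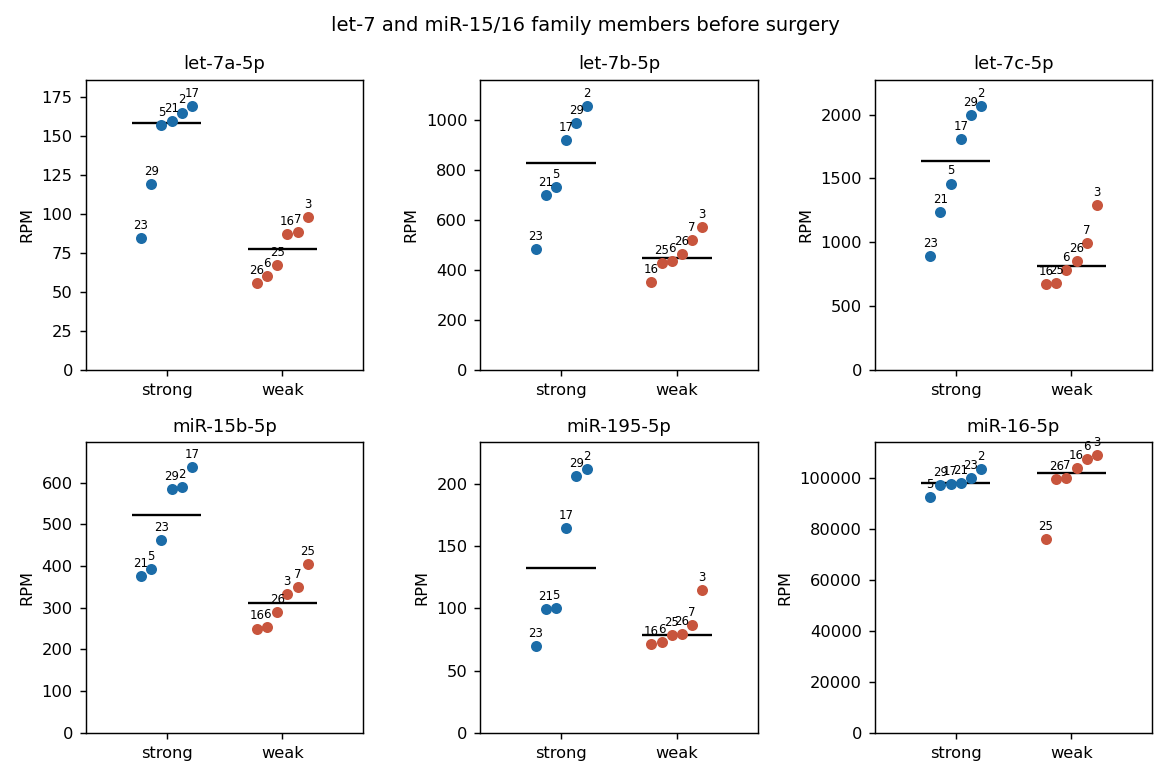
Level of 6 miRNAs before surgery in RPM on linear axes that start at 0, with 1 point per rat (numbers are rat numbers) and a black line at the median of each group of 6 rats. In let-7a-5p and let-7b-5p only strong rat 23 lies within the range of the weak rats, whereas the groups overlap broadly in miR-16-5p.

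For miR-15b-5p, a miRNA known to act on the cell cycle and on the survival factor BCL2, strong rats had 589, 392, 638, 375, 461 and 585 RPM and weak rats had 332, 253, 349, 250, 404 and 291 RPM. Rats 5 and 21 lay below weak rat 25, the highest weak rat, and the other strong rats above it. The log2 difference was 0.66 ± 0.19. miR-195-5p, with the same seed, had a log2 difference of 0.72 ± 0.26 (FDR 0.589), with 69.7 to 212 RPM in strong and 71.4 to 115 RPM in weak rats.

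The other members of that seed family had log2 differences nearer to 0. miR-16-5p, which neighbours miR-15b-5p in the genome and is mainly a red-cell miRNA in plasma, had a log2 difference of -0.07 ± 0.16, and its groups overlapped with medians of 98018 RPM in strong and 102203 RPM in weak rats. For miR-322-5p the log2 difference was 0.16 ± 0.17, and for miR-497-5p it was 0.04 ± 0.24. The opposite arm miR-15b-3p had -0.12 ± 0.23 at a mean of 173 RPM. The differences between these family members were not tested.

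The miRNAs of muscle had mostly positive differences, with the highest values in 2 strong rats. miR-133a-3p, a miRNA of skeletal and heart muscle that acts on muscle cell growth, was at 400, 773, 2108, 5699, 1806 and 9574 RPM in strong rats 2, 5, 17, 21, 23 and 29. In weak rats 3, 6, 7, 16, 25 and 26 it was at 1090, 1047, 304, 1652, 1529 and 1083 RPM. Strong rats 21 and 29 stood far above the rest, strong rats 2 and 5 lay below most weak rats, and the groups overlapped.

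The log2 difference of miR-133a-3p was 1.51 ± 0.51 in edgeR (FDR 0.541). On the scale of log2(RPM + 1) the means were 11.0 ± 1.71 and 9.96 ± 0.880 (SD, n = 6), a difference of 1.01 that did not pass the test (two-sided exact permutation p = 0.223, adjusted p = 0.390). Without rats 21 and 29 the edgeR difference was 0.23 (FDR 0.912). miR-133b-3p differs from miR-133a-3p at 1 base, so reads of the more abundant miR-133a-3p may be counted to it, and it had a log2 difference of 1.07 ± 0.50.

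Of the 12 muscle miRNAs listed, 1 had 0 reads in all baseline samples, 11 were tested and 9 of these had positive and 2 negative log2 differences, with 4 at an unadjusted p under 0.05 on the strong side and 0 on the weak side, against 4.74% and 3.21% of all miRNAs. The median was 0.83, against -0.01 over all 591 miRNAs. The values of the muscle members are not all independent, as miR-133a-3p and miR-133b-3p differ at 1 base, and so do miR-1-3p and miR-1b. miR-206-3p, which is restricted to skeletal muscle, had 1.99 ± 0.83 with 83.4 RPM in strong rat 29 and at most 17.2 RPM in any other rat, and without rat 29 the difference was 0.40. miR-1-3p, the other main muscle miRNA, had 1.35 ± 0.54 with a highest level of 144 RPM in rat 29. The heart miRNAs miR-208a-3p and miR-208b-3p had means below 10 RPM and log2 differences of 0.09 ± 0.95 and -0.29 ± 0.75.

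In 4 of the 5 muscle miRNAs whose mean level reached 10 RPM, rats 21 and 29 held the 2 highest values. Without them the median of these 5 was 0.19 in place of 1.35, and without weak rats 25 and 26 it was 1.60. The sum of the muscle miRNAs was 447 to 10054 RPM in strong rats (median 2100 RPM) and 329 to 1761 RPM in weak rats (median 1181 RPM). Rat 21 also had the smallest total count and rat 29 the lowest haemolysis ratio, and the part of these in the muscle values was not tested.

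miR-375-3p, a miRNA of pancreatic islets and other endocrine and epithelial cells, was on the side of weak regenerators. Strong rats had 1772, 1193, 1658, 985, 1525 and 1909 RPM, and weak rats 1079, 2932, 3009, 2534, 3138 and 1791 RPM. Weak rats 6, 7, 16 and 25 lay above every strong rat, while weak rats 3 and 26 lay among the strong rats. The log2 difference was -0.72 ± 0.23 (FDR 0.541).

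On log2(RPM + 1) miR-375-3p was 10.5 ± 0.366 in strong and 11.1 ± 0.602 in weak regenerators (SD, n = 6), a difference of -0.63 (exact permutation p = 0.0541, adjusted p = 0.280). The unadjusted p of this value crossed 0.05 under some other scalings. Leaving out 1 rat at a time gave differences from -0.84, without weak rat 3, to -0.51. The exact permutation p then ran from 0.00433 (without rat 3) to 0.119. The other islet and endocrine miRNAs tested were miR-7a-5p with 0.66 ± 0.35, miR-7a-1-3p with -0.16 ± 0.19 and miR-7a-2-3p with -0.78 ± 0.48, so the 4 members did not share a direction. Of the 5 members listed, 1 was at 0 in all baseline samples.

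**Figure D2:**
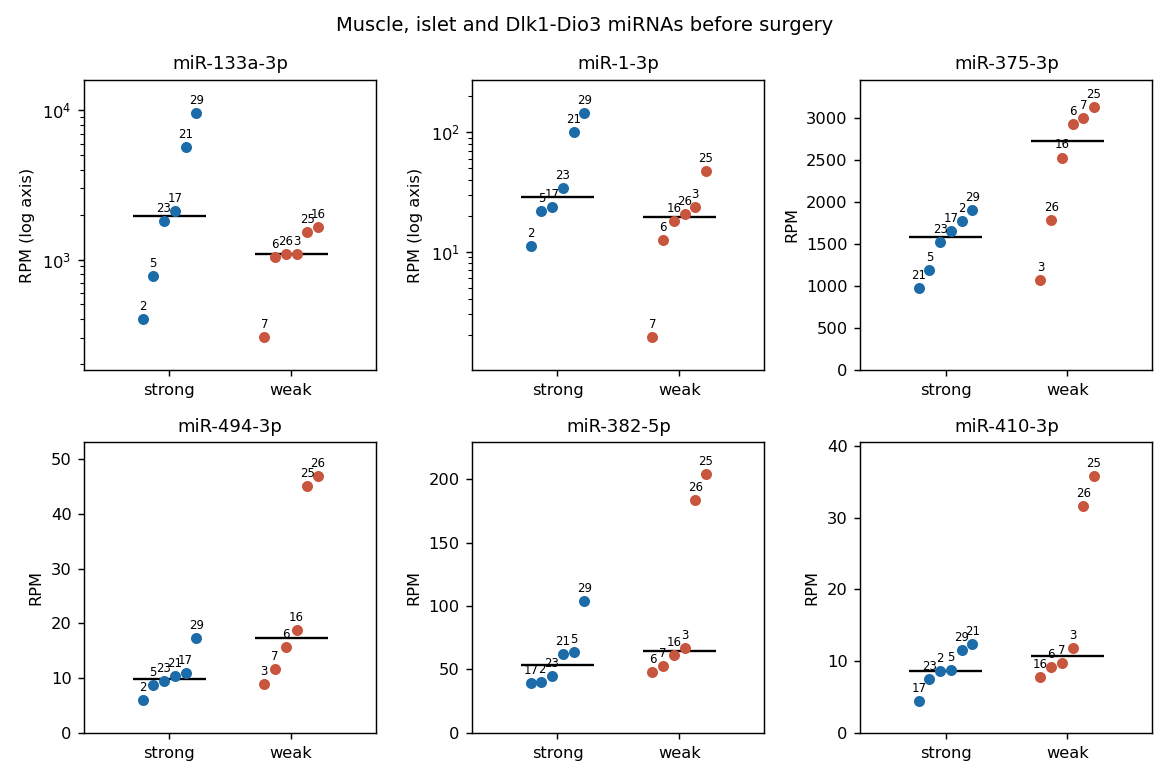
Level of 6 miRNAs before surgery in RPM (log axis for miR-133a-3p and miR-1-3p, linear axes from 0 for the others), with 1 point per rat, rat numbers beside the points and a black line at the median of each group of 6 rats. Strong rats 21 and 29 stand above the others in both muscle miRNAs, and weak rats 25 and 26 in miR-494-3p, miR-382-5p and miR-410-3p.

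The miRNAs of the imprinted Dlk1-Dio3 region, a large cluster on chromosome 6 that is expressed from the maternal copy, were mostly on the side of weak regenerators. All 39 listed members were tested: 30 had negative and 9 positive log2 differences, 7 had an unadjusted p under 0.05 on the weak side, against 3.21% of all miRNAs, and the median was -0.63. Of the 10 miRNAs with the smallest p-values on the weak side (mean of at least 10 RPM), miR-494-3p had the most negative difference, -1.22 ± 0.42 (FDR 0.541). Its levels were 6.05 to 17.3 RPM in strong rats (median 9.89 RPM), and 45.1 and 46.9 RPM in weak rats 25 and 26, with 8.89 to 18.8 RPM in the other 4 weak rats.

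Weak rats 25 and 26 held the 2 highest values in 12 of the 20 members of the cluster whose mean level reached 10 RPM. In miR-382-5p they had 204 and 183 RPM, against 48.1 to 67.2 RPM in the other weak rats and 39.0 to 104 RPM in strong rats. In miR-410-3p they had 35.8 and 31.6 RPM, against at most 12.4 RPM in any other rat. Without these 2 rats, 24 of 38 members had positive differences, 0 had an unadjusted p under 0.05 in either direction and the median was 0.16. Of all 585 miRNAs in that fit, 24 reached it on the strong and 10 on the weak side.

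The summed level of the cluster was 1727 and 1640 RPM in rats 25 and 26, 406 to 674 RPM in the other weak rats and 402 to 1382 RPM in strong rats, where rat 29 was the highest. Without strong rats 21 and 29, 35 of 39 members had negative differences and the median was -0.86. On the weak side 15 members then had an unadjusted p under 0.05, against 18 of all 584 miRNAs. The values of the cluster thus depended on single rats of both groups. miR-485-3p, from the same region but not on the list, showed the same placing with 33.1 and 27.1 RPM in rats 25 and 26 and at most 10.8 RPM elsewhere. What set these rats apart was not tested.

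Among miRNAs of bone-forming and mesenchymal cells, 7 of 15 had positive and 8 negative log2 differences, with a median of -0.01, equal to that of all miRNAs. miR-199a-3p, abundant in mesenchymal cells and platelets, had 0.90 ± 0.31 (FDR 0.541) with 1124 to 6155 RPM in strong and 692 to 2016 RPM in weak rats. miR-125b-5p, which is known to restrain osteoblast differentiation, had 0.78 ± 0.31 (FDR 0.589) with 1356 to 4706 RPM in strong and 667 to 2271 RPM in weak rats. In both, rat 29 was the highest of all 12 rats, and without it the differences were 0.51 and 0.48. miR-145-5p had -0.55 ± 0.26, and miR-29a-3p, which acts on collagen mRNAs, had -0.01 ± 0.19.

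The cartilage miRNAs miR-140-5p and miR-455-5p had log2 differences of 0.37 ± 0.21 and 0.39 ± 0.19. Their opposite arms, which are far more abundant in this plasma, had 0.00 ± 0.17 (miR-140-3p) and 0.03 ± 0.20 (miR-455-3p). miR-140-5p was at 456 to 880 RPM in strong and at 339 to 653 RPM in weak rats, and every strong rat was above the weak median of 437 RPM.

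All 11 listed miRNAs of the miR-322 cluster on the X chromosome, whose members act on the cell cycle and on muscle and bone differentiation, had positive log2 differences, between 0.14 and 0.41. They are cut from neighbouring hairpins that are transcribed together and are not independent. The median was 0.23, and 1 member, miR-542-3p with 0.41 ± 0.20, had an unadjusted p under 0.05, against 4.74% of all miRNAs on that side. Its levels were 204 to 327 RPM in strong and 143 to 249 RPM in weak rats.

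Liver miRNAs did not share a direction. Of 8 members, 2 had positive and 6 negative differences, with a median of -0.40 and 2 at an unadjusted p under 0.05, against 3.21% of all miRNAs on that side. These were minor arms, miR-192-3p with -0.88 ± 0.32 and miR-802-3p with -0.96 ± 0.42. The abundant arm miR-192-5p had -0.23 ± 0.23 at a mean of 8151 RPM. Without weak rat 25, which had 54.3 RPM against 9.88 to 25.7 RPM in the other weak rats, the difference of miR-802-3p was -0.51. Scaled to UniSp2 reads, 0 liver members reached an unadjusted p under 0.05, against 37 of all 591 miRNAs on the strong and 6 on the weak side. miR-122-5p, the main liver miRNA, had 0.40 ± 0.39 with 353 to 2054 RPM in strong and 434 to 2534 RPM in weak rats. It was 0.95 without weak rat 25 and 0.21 without strong rat 2. The median of the 7 liver members whose mean level reached 10 RPM was -0.36, and leaving out 1 rat moved it between -0.46 and -0.15, the latter without weak rat 25.

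Epithelial miRNAs lay on the weak side in 11 of 12 members with a median of -0.29. The members at an unadjusted p under 0.05 were miR-429, of the miR-200 family, with -0.43 ± 0.17 and miR-183-5p with -0.48 ± 0.23, 2 of 12 against 3.21% of all miRNAs on that side. There was 1 such member with RLE or library size scaling and 0 with UniSp2 scaling, and without weak rat 3 the median was -0.13. Of all 591 miRNAs, 18, 14 and 6 reached it on that side with RLE, library size and UniSp2 scaling. Erythrocyte miRNAs (1 of 6 positive, median -0.10), platelet and leukocyte miRNAs (4 of 10 positive, median -0.05) and neural miRNAs (2 of 7 positive, median -0.09) had 0 members at an unadjusted p under 0.05. Scaled to UniSp2 reads in place of TMM, these 3 medians changed sign to 0.03, 0.09 and 0.04, and that of bone-forming and mesenchymal cells to 0.07. Under the same scaling the median of all 591 miRNAs moved from -0.01 to 0.09. The 5 miRNAs of blood cells used to check the sample type were detected in every rat and summed to 212911 to 298267 RPM in strong and 240704 to 314619 RPM in weak rats.

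**Figure D3:**
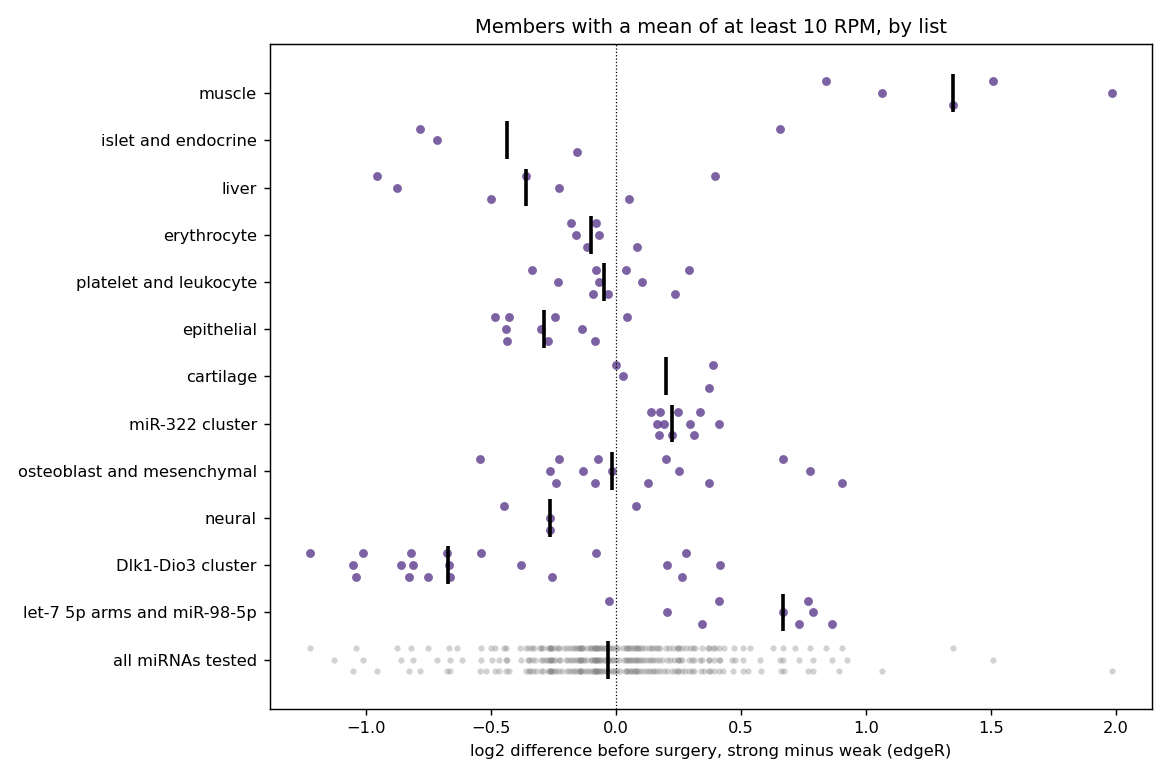
Log2 difference before surgery (strong minus weak, edgeR) of the miRNAs with a mean of at least 10 RPM in each list, with 1 point per miRNA and a black line at the list's median; the bottom row shows the 315 such miRNAs of the whole table. The muscle and let-7 members lie mostly right of 0 and the Dlk1-Dio3 members mostly left of it, while the median of all miRNAs is -0.03.

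Only 1 of the 315 miRNAs with a mean of at least 10 RPM (0.317%) had groups that did not overlap. This was miR-339-5p, named here because its values were seen, with 377 to 483 RPM in strong and 310 to 365 RPM in weak rats. Its log2 difference was 0.25 ± 0.16 (FDR 0.639).

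Rank correlation of the 315 miRNAs placed the rats close together, with a median Spearman's rho to the other 11 rats between 0.949 and 0.977. The lowest value belonged to strong rat 29. The nearest neighbour was of the same group for 11 of 12 rats, the exception being weak rat 7, whose nearest neighbour was strong rat 2. With counts thinned to the smallest total it was 9 of 12, and over the 180 miRNAs with a mean of at least 100 RPM it was 8 of 12. These counts were noticed in the data and carry no test, and depth differed between the groups in the same samples.

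**Figure D4:**
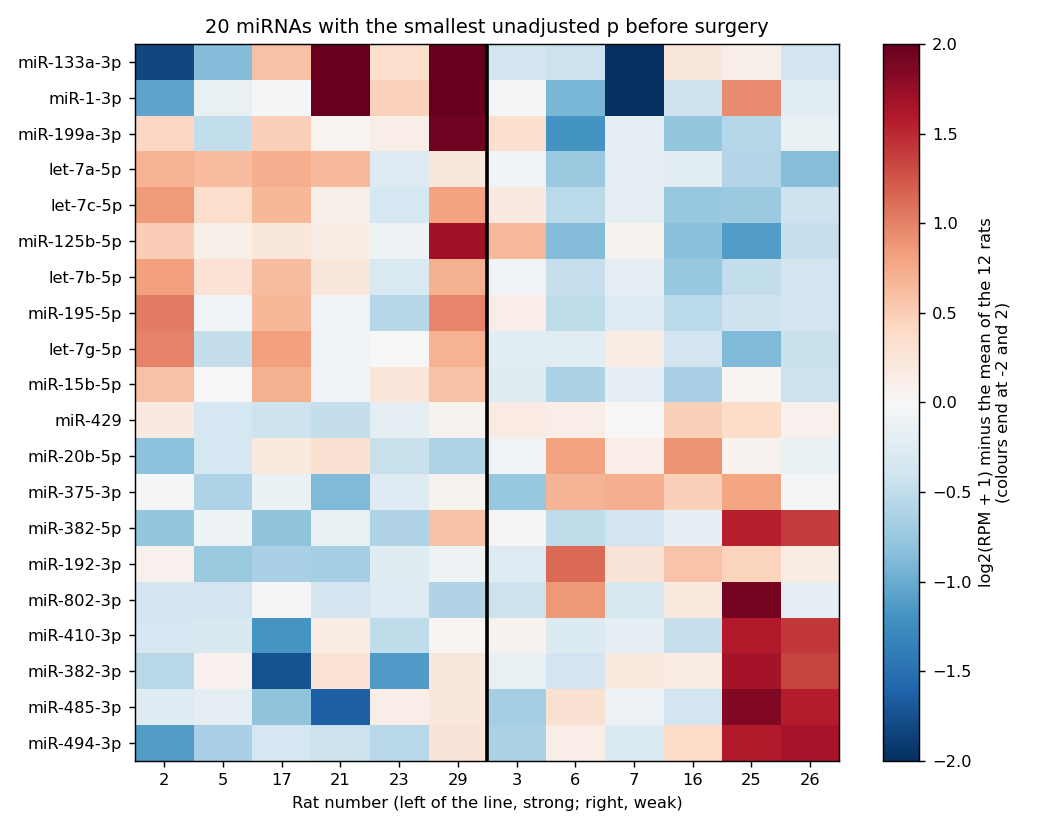
Deviation of log2(RPM + 1) from the mean of the 12 rats for 20 miRNAs, the 10 per direction with the smallest unadjusted p at a mean of at least 10 RPM. Rats are columns (strong left of the line, weak right of it), and colours end at -2 and 2. The let-7 rows are shared by most strong rats, whereas the muscle rows are led by rats 21 and 29 and the Dlk1-Dio3 rows by rats 25 and 26.

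The same comparison in the 36 samples after surgery also gave 0 calls among 645 miRNAs with edgeR, DESeq2 and limma-voom, with 53 at an unadjusted p under 0.05 (8.22%) and a smallest FDR of 0.270 in edgeR. A test of whether the group difference itself changed from baseline to the later weeks gave 0 calls with all of these tools, 33 at an unadjusted p under 0.05 (5.12%) and a smallest FDR of 0.600 in edgeR. Both fits used all 48 samples, baseline included, and took the samples of a rat as independent.

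Pooled over the later weeks, let-7a-5p, let-7b-5p and let-7c-5p had negative differences, but not at each week. The log2 difference over weeks 1, 4 and 8 was -0.24 ± 0.18 for let-7a-5p, -0.27 ± 0.19 for let-7b-5p and -0.23 ± 0.19 for let-7c-5p. The medians of let-7b-5p were 826 RPM in strong and 450 RPM in weak rats at baseline, then 463 and 514 RPM at week 1, 362 and 551 RPM at week 4, and 422 and 345 RPM at week 8. In let-7a-5p the strong median was above the weak one at week 1 (85.7 and 79.7 RPM) and week 8 (114 and 91.4 RPM), and below it at week 4 (87.1 and 92.0 RPM). In let-7c-5p it was above the weak one at week 8 (847 and 627 RPM). The baseline difference minus the later difference was 1.12 for let-7a-5p, 1.07 for let-7b-5p and 1.05 for let-7c-5p and did not pass the test (FDR 0.625 each).

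miR-195-5p had -0.82 ± 0.29 after surgery against 0.72 ± 0.26 before it, and the baseline minus the later difference, 1.58, had an FDR of 0.625. Its medians in strong and weak rats were 56.1 and 72.8 RPM at week 1, 48.8 and 64.1 RPM at week 4, and 37.3 and 35.6 RPM at week 8. miR-15b-5p had 0.03 ± 0.16 after surgery. miR-199a-3p and miR-125b-5p had -0.06 ± 0.24 and -0.03 ± 0.23.

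Pooled over the later weeks, the difference of miR-133a-3p had the sign of the baseline, and so had that of miR-375-3p, although at week 4 the medians of miR-375-3p were 2202 RPM in strong and 2019 RPM in weak rats. The log2 difference over the later weeks was 0.75 ± 0.29 for miR-133a-3p and -0.36 ± 0.13 for miR-375-3p. The median of miR-133a-3p was 1957 RPM in strong and 1086 RPM in weak rats at baseline, 1626 and 785 RPM at week 1, 2732 and 1906 RPM at week 4, and 4444 and 1695 RPM at week 8. The baseline difference minus the later difference was 0.83 for miR-133a-3p (FDR 1.00) and -0.32 for miR-375-3p (FDR 1.00). In edgeR both differences were thus nearer to 0 after surgery, a change that did not pass the test. The group medians of miR-133a-3p were furthest apart at week 8. With the rat as a block, the baseline difference minus the later difference was 0.38 for miR-133a-3p.

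Of the 10 miRNAs with the smallest p-values on the strong side at baseline, 3 had a positive and 7 a negative difference after surgery, and their median moved from 0.78 to -0.08. Of the 10 on the weak side, 8 stayed negative and 2 were positive, and their median moved from -0.92 to -0.17. These 20 were chosen by their baseline values, so the baseline medians are selected values and the later ones are not.

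**Figure D5:**
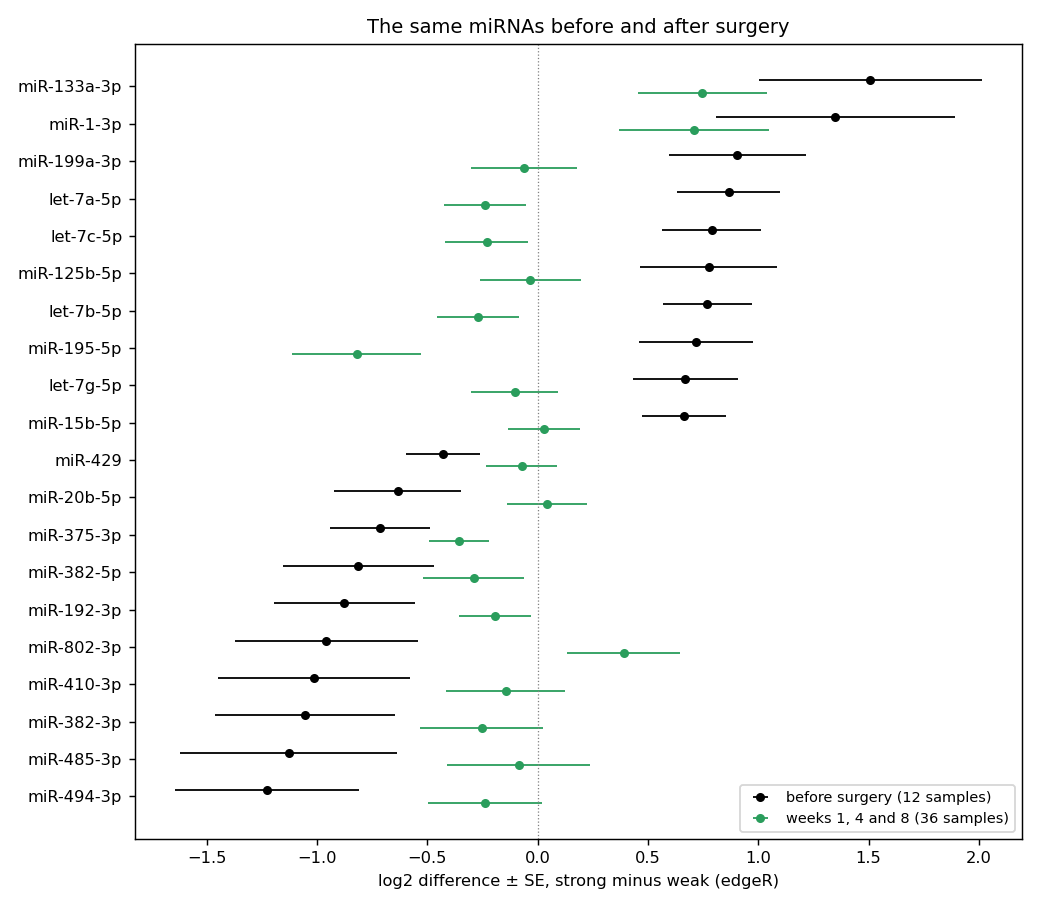
Log2 difference of strong minus weak regenerators with its SE before surgery (black, 12 samples) and over weeks 1, 4 and 8 (green, 36 samples) for the 20 miRNAs chosen by their baseline p. The green values come from a fit to all 48 samples. The later values of the let-7 miRNAs lie left of 0, and those of miR-133a-3p and of miR-375-3p keep the side of the baseline.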

How the data were processed

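Plasma RNA was extracted with UniSp spike-ins, and small RNA libraries were made by single-adapter ligation, with no molecular identifiers named. The authors trimmed reads with cutadapt 3.3, mapped them with Bowtie 1.3.0 and miRDeep2 to the rat genome (Rnor 6.0 in the methods, a human build in the labels) and miRBase, allowing mismatches, and deposited raw counts of 645 miRNAs and 3 spike-ins without normalization. RPM values are counts scaled to 1e+06 miRNA reads. Reads are not independent molecules.

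Strong and weak regenerators were compared over the 12 baseline samples with R 4.3.3 and edgeR 4.0.16 (quasi-likelihood method of version 3, TMM, two-sided, Benjamini-Hochberg). Of the 645 miRNAs, 54 had 0 reads in all baseline samples. The later differences came from a fit to all samples, baseline included, with a separate mean for each group at each time point. They were averaged over the weeks after surgery. SE is the log2 difference divided by the root of the F statistic. Single values were tested by exact permutation over all splits of 6 and 6 rats (smallest possible p 0.00216). DESeq2 1.42.0 and limma 3.58.1 served as alternatives. The code was tested on simulated data.

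Named were miR-133a-3p and miR-375-3p, the 10 miRNAs per direction with the smallest p at a mean of at least 10 RPM, and in each of 12 lists the 2 most abundant and the 2 with the largest differences, and list members of interest were added. Members and lists were chosen with earlier results of these data known. Samples with the same number are the same rat. Their deviations had a mean correlation of 0.108 (-0.00946 between rats). No library was a copy of another (chi-square per degree of freedom 23.0 to 338). Mature sequences of RefSeq matched 536 of the 591 miRNAs. Plots used Python 3.11.15 and matplotlib 3.10.9.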

Additional observations from a re-analysis of the deposited data

Results flagged for a closer look

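In 8 of 108 groups of 6 rats, 1 rat stood apart from the other 5 by more than Dixon's 95% limit of 0.625, and chance flags about 1 in 20 groups. miRNA levels were compared on log2(RPM + 1), which gave all 8, and on RPM without logs 12 of the same miRNA groups passed the limit. Weak rat 25 was apart in 3 of them. It had 2534 RPM of the liver miRNA miR-122-5p against 434 to 732 RPM in the other weak rats, 76050 RPM of miR-16-5p against 99597 to 109160 RPM, and 1882 RPM of miR-450a-5p, a member of the miR-322 cluster, against 968 to 1201 RPM.

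Weak rat 7 was low in miR-133a-3p with 304 RPM against 1047 to 1653 RPM in the other weak rats. Strong rat 29 was high in miR-125b-5p with 4706 RPM against 1356 to 2040 RPM. Strong rat 2 had 165 RPM of the epithelial miRNA miR-183-5p against 69.9 to 95.4 RPM, strong rat 17 had 1857 RPM of the epithelial miRNA miR-205 against 3767 to 4820 RPM, and strong rat 21, the shallowest sample, had 0 RPM of miR-7a-2-3p against 7.28 to 21.3 RPM.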

How the results depend on the processing

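The count of 0 calls before surgery held in 24 of 25 alternatives, and DESeq2 called 3. The alternative without a filter equalled the main fit, because the filter removed none of the 591 miRNAs, so its result was fixed in advance. Leaving out each rat gave 0 calls with a smallest FDR of 0.0541 to 0.459. After surgery the leave-one-out counts were 0 to 1, and the 1 call, without rat 29, was miR-335 (lower in strong regenerators). The change of the difference gave 0 calls in every alternative, also with the rat as replicate block (0 calls, 25 at an unadjusted p under 0.05, smallest FDR 0.974), and summing the later samples of a rat gave 0 calls after surgery, so the replicate block changed no call.

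By exact permutation miR-375-3p was at -907 without logs (p = 0.0368), at -0.67 on TMM-scaled CPM (p = 0.0433) and at -0.53 per UniSp2 reads (p = 0.0346). Leaving out 1 rat gave differences of -0.84 to -0.51 (exact permutation p from 0.00433 to 0.119). For miR-133a-3p the range of differences was 0.56 to 1.48. The haemolysis difference ranged from -0.20 to 0.23, detected miRNAs from -14.7 to -4.53 (1.5 when thinned), miRNAs over 10 reads from -30.1 to -17.1, UniSp2 from -4.73 to -1.26, and the total count from -353652 to -177957. Without rats 2 or 17 the miRNAs over 10 reads passed an unadjusted 0.05 (exact permutation p = 0.0455 and 0.0130), as did the total count without rat 17 (exact permutation p = 0.0346).

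Of 1222 alternative values of the 49 named miRNAs, 31 changed sign. Leave-one-out ranges crossing 0 were those of miR-140-3p (-0.083 to 0.096), miR-144-5p (-0.29 to 0.019), miR-16-5p (-0.13 to 0.023), miR-203a-3p (-0.37 to 0.12), miR-29a-3p (-0.14 to 0.10), miR-450a-5p (-0.035 to 0.45), miR-451-5p (-0.36 to 0.036) and miR-455-3p (-0.079 to 0.20). Other scalings turned miR-140-3p (-0.0015 with RLE and DESeq2), miR-16-5p (0.049 with UniSp2) and miR-29a-3p (0.031 with library size, 0.068 with UniSp2, 0.015 with all 48 samples). Alternatives added after the data were seen turned miR-150-5p (-0.012) and miR-434-3p (0.034) without rats 25 and 26, miR-16-5p (0.011), miR-1b (-0.0095) and miR-29a-3p (0.075) without rats 21 and 29, and miR-9a-5p (0.044) with thinned counts. None of the values that changed sign passed the test, and the cause was not tested. The 6 rats per group and the 482189 reads of the shallowest sample limit the precision for rare miRNAs.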
